A study of Mus musculus with 11 samples.

Results

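The genes described here are 6 genes of gluconeogenesis, the synthesis of new glucose, measured in the small intestine of mice: Pck1, G6pc, Fbp1, Pcx, Slc37a4 and Gpd1. They were taken by gene symbol from a table of 24294 symbols, and all 6 were present and passed the filter on low values (at least 1 FPKM in at least 3 libraries, 10764 genes). FPKM is a fragment count divided by gene length and by the total of the library, so it is a level per length. The 11 libraries fall into 3 groups, which the labels name HLJDD (n = 4), HFD (n = 4) and ND (n = 3). The series title names Huang Lian Jiedu Decoction, a herbal preparation with the initials of the HLJDD group, and obese mice. What ND and HFD stand for, the diet of the HLJDD mice, the stretch of small intestine sampled, and the strain, sex and age of the mice are not stated in the labels. Nor do they say that the libraries of a group came from different mice, and p-values here rest on the spread among libraries, which could be technical.

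Gluconeogenesis runs glycolysis backwards, and the irreversible steps of glycolysis are bypassed by enzymes of its own. Pyruvate carboxylase (Pcx) and phosphoenolpyruvate carboxykinase (Pck1) together reverse pyruvate kinase, fructose-1,6-bisphosphatase (Fbp1) reverses phosphofructokinase, and glucose-6-phosphatase (G6pc) reverses hexokinase. The glucose-6-phosphate translocase (Slc37a4) carries the substrate of G6pc into the endoplasmic reticulum. Cytosolic glycerol-3-phosphate dehydrogenase (Gpd1) joins glycerol 3-phosphate to the triose phosphates, and in enterocytes it also bears on triglyceride assembly. The liver and kidney are the main sites of the pathway, and the small intestine is known to express its enzymes as well, more in its upper than in its lower stretches.

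The start regions of Pck1 and G6pc are shown because Pck1 was the member that differed most between groups and G6pc makes the enzyme of the last, glucose-releasing step. Each window runs from 250 bases before to 50 bases after the RefSeq start (GRCm38.p6), 5′ to 3′ on the strand of the gene, here the plus strand for both, at chr2:173152823-173153122 for Pck1 and chr11:101367466-101367765 for G6pc. A window was matched for 5 of the 6 members. Capitals mark TGACG, the core of a CREB site, read on either strand, CAAAGNTCA, a form of HNF4 site, and TATAAA, the TATA box. These motifs do not overlap one another in the windows shown.
Pck1: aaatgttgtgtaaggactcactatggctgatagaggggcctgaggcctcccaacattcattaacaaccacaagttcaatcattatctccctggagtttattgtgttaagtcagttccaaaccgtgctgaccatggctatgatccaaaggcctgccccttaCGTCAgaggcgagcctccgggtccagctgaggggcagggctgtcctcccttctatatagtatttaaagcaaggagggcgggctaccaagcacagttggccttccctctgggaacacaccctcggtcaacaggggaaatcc
G6pc: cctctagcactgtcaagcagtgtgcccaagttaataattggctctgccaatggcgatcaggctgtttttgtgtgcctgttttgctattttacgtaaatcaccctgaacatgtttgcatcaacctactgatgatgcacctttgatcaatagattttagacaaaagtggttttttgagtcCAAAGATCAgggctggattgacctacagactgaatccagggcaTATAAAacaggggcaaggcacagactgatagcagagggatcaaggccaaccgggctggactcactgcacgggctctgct
Both strands were searched. Pck1 held the CREB core at position -90 from the start. G6pc held TATAAA at -29 and CAAAGNTCA at -72. Of 32851 mouse windows of the same length, 20.8% held TGACG, 13.6% TATAAA and 1.51% CAAAGNTCA. GTTAAT, part of an HNF1 site and held by 7.1% of windows, occurred in both windows, at -192 in Pck1 and -221 in G6pc. AGATAA, known from sites of GATA factors and held by 11.2% of windows, occurred at -169 in Pck1. These matches describe the letters in the windows and say nothing about binding.

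The libraries held 30100481 to 37940645 reads in genes, recovered from the deposited FPKM values, and the members rested on 274 (G6pc) to 36624 (Gpd1) reads per library. The 13 mitochondrially encoded genes held 40.7% of the reads of HLJDD replicate 2, 32.4% of those of HFD replicate 1 and between 10.4% and 19.3% elsewhere. All 12 enterocyte markers stood at 1 FPKM or more in every library. Limma called 1 of the 12 higher, Alpi, and 0 lower in each comparison with ND. Only 5 of 12 had a log2 change above 0 in each, with a median of -0.138 in HFD and -0.252 in HLJDD. Most markers of the stretch of gut differed between ND and the other groups. Of 11 tested proximal markers, limma called 8 higher and 1 lower in HFD and likewise in HLJDD against ND. The 1 lower was Slc40a1, the iron exporter ferroportin (log2 change -1.96 in HFD and -1.85 in HLJDD; limma, adjusted p = 0.00140 and 0.00233), and Sct, the secretin gene, was called in neither (-0.24 and -0.37; limma, adjusted p = 0.353 and 0.204). Of 11 tested distal markers, 8 were called lower in HFD and 9 in HLJDD against ND, and none higher. Over all tested genes, 5.06% were called higher and 11.5% lower in HFD against ND. In HLJDD against ND these shares were 4.10% and 7.79%. The summed level of 12 proximal markers ran from 29493 to 50183 FPKM in HLJDD libraries and from 35644 to 47692 FPKM in HFD libraries, against 1747 to 9911 FPKM in ND libraries. The sum of 12 distal markers ran from 316 to 601 FPKM in HLJDD and from 354 to 541 FPKM in HFD, against 1825 to 12324 FPKM in ND. Fabp6, the ileal bile acid binding protein, stood at no more than 4.31 FPKM in the 8 HLJDD and HFD libraries, against 9821, 6702 and 397 FPKM in ND. In every comparison with ND, group and these regional markers move together, so a difference of group and a difference in the stretch of gut cannot be told apart. In these bulk samples, fewer cells of a type and less RNA per cell cannot be told apart either.

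Levels per length differed widely between the members, and 2 of them led in every library. Gpd1 was the most abundant and Pck1 the next in 11 of 11 libraries. Gpd1 averaged 261 ± 81.9 FPKM in HLJDD, 239.9 ± 71.3 FPKM in HFD and 167 ± 8.57 FPKM in ND (mean ± SD, n = 4, 4 and 3, as in all values of this kind below). Fbp1 and Slc37a4 exchanged places below them between libraries, as did G6pc and Pcx at the low end, so these neighbours were not separated by their level.

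**Figure D1:**
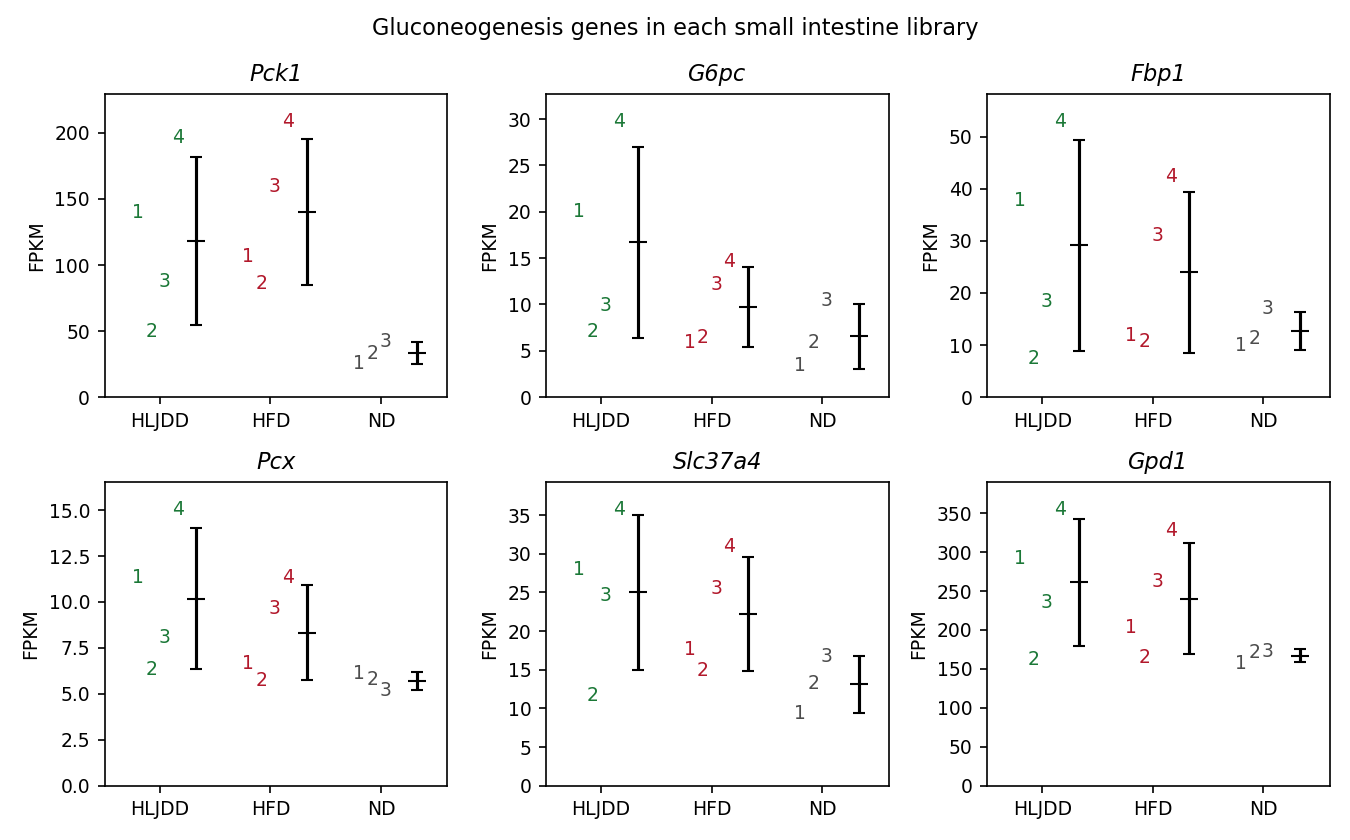
FPKM of each gluconeogenesis gene (y axis, linear, from 0) by group (x axis). Digits are single libraries, placed at their value and named by replicate number, and bars give the group mean ± SD (n = 4 HLJDD, 4 HFD, 3 ND). The HLJDD and HFD libraries of Pck1 lie above all ND libraries, while the other genes overlap between HFD and ND.

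Pck1, the carboxykinase that turns oxaloacetate into phosphoenolpyruvate, was the member that differed most from ND. The gene lies at chr2:173153073-173159274 on the plus strand (GRCm38.p6, as for the positions below). It stood at 139.6, 49.8, 87.3 and 196 FPKM in the HLJDD libraries, at 106, 86.1, 159 and 209 FPKM in the HFD libraries, and at 25.8, 32.8 and 42.1 FPKM in the ND libraries. Every HLJDD and every HFD library lay above every ND library, with the smallest distance between HLJDD replicate 2 and ND replicate 3. A change is the mean of log2(FPKM + 1) in a group minus that in another, a scale that makes the change of low genes look smaller, and a gene is called where the Benjamini-Hochberg adjusted p over all tested genes is under 0.05. In HFD against ND, Pck1 rose by 1.97 (SE 0.42) on the log2 scale (limma, adjusted p = 0.00862), with means of 140.1 FPKM in HFD and 33.5 FPKM in ND. In HLJDD against ND it rose by 1.64 (SE 0.42; limma, adjusted p = 0.0250), with a mean of 118 FPKM in HLJDD. Both comparisons use the same ND libraries. The HFD call was lost when ND replicate 1 was left out (limma, adjusted p = 0.0530, log2 change 1.80). The HLJDD call was lost without HLJDD replicate 1 (0.0676), HLJDD replicate 4 (0.0676), ND replicate 1 (0.126) or ND replicate 2 (0.0904), all limma adjusted p, and also with no filter on low values (0.0739). Without HLJDD replicate 2 and HFD replicate 1, the libraries of high mitochondrial share, the changes were 2.08 in HFD and 1.99 in HLJDD against ND (limma, adjusted p = 0.00434 and 0.00688).

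Pcx makes pyruvate carboxylase, which supplies the oxaloacetate that Pck1 uses, and lies at chr19:4510472-4621752 on the plus strand. It stood at 11.3, 6.31, 8.09 and 15.03 FPKM in HLJDD, at 6.66, 5.72, 9.63 and 11.3 FPKM in HFD, and at 6.13, 5.80 and 5.19 FPKM in ND. HLJDD lay above ND without overlap, but HLJDD replicate 2 only just. HFD replicate 2 lay within the ND range. The log2 change was 0.44 in HFD against ND (SE 0.27; limma, adjusted p = 0.239) and 0.68 in HLJDD against ND (SE 0.27; limma, adjusted p = 0.117), and neither passed the threshold. Pcx overlaps Lrfn4 on the other strand, and whether counting used the strand is not stated in the labels, so reads of the 2 genes may not be separated.

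Fbp1, the bisphosphatase, had the widest range within HLJDD and HFD, and lies at chr13:62864753-62888298 on the minus strand. It stood at 37.7, 7.46, 18.4 and 53.0 FPKM in HLJDD, at 11.8, 10.6, 31.1 and 42.3 FPKM in HFD, and at 10.0, 11.3 and 16.9 FPKM in ND. HLJDD replicate 2 lay below every ND library and HLJDD replicate 4 was the highest of all 11. The log2 change was 0.67 in HFD against ND (SE 0.60; limma, adjusted p = 0.417) and 0.85 in HLJDD against ND (SE 0.60; limma, adjusted p = 0.369).

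G6pc and Slc37a4 act together in the endoplasmic reticulum, the enzyme and the carrier of its substrate. They lie at chr11:101367716-101377903 and chr9:44396946-44402966, both on the plus strand. G6pc stood at 20.05, 7.13, 9.85 and 29.8 FPKM in HLJDD, at 5.85, 6.45, 12.1 and 14.7 FPKM in HFD, and at 3.44, 5.88 and 10.4 FPKM in ND. In each of HLJDD and HFD, 2 of 4 libraries lay above the highest ND library. Its log2 change was 0.52 in HFD against ND (SE 0.46; limma, adjusted p = 0.411) and 1.14 in HLJDD against ND (SE 0.46; limma, adjusted p = 0.132). Slc37a4 stood at 28.0, 11.6, 24.7 and 35.7 FPKM in HLJDD, at 17.6, 14.9, 25.5 and 31.0 FPKM in HFD, and at 9.32, 13.2 and 16.8 FPKM in ND. In HLJDD and in HFD, 3 of 4 libraries lay above all ND libraries. Its log2 change was 0.70 in HFD against ND (SE 0.35; limma, adjusted p = 0.159) and 0.82 in HLJDD against ND (SE 0.35; limma, adjusted p = 0.145).

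Gpd1, the link to glycerol 3-phosphate, lies at chr15:99717587-99725014 on the plus strand. It stood at 292, 162, 235 and 355 FPKM in HLJDD, at 204, 165, 263 and 328 FPKM in HFD, and at 157, 172 and 172 FPKM in ND. The ND libraries were close to each other, and the lowest library of HLJDD and of HFD fell among them. The log2 change was 0.47 in HFD against ND (SE 0.27; limma, adjusted p = 0.213) and 0.58 in HLJDD against ND (SE 0.27; limma, adjusted p = 0.177). An antisense gene, Gm16537, lies within the Gpd1 locus.

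In counts, limma called 1 of the 6 members higher in HFD against ND, where 5.06% of all tested genes were called higher and 16.6% in either direction. It likewise called 1 of 6 higher in HLJDD against ND, where 4.10% were called higher and 11.9% in either direction. No member was called lower, against 11.5% and 7.79% of all tested genes. All 6 log2 changes were above 0 in both comparisons, with a median of 0.595 in HFD against ND and 0.833 in HLJDD against ND, while the median of all tested genes was -0.205 and -0.127. These are not 6 separate observations. The members mostly shared the order of libraries within groups, given below, and both comparisons use the same ND libraries. Groups did not overlap, with the higher side in HFD, for 1 of 6 members, against 9.57% of tested genes. They did not overlap, with the higher side in HLJDD against ND, for 2 of 6, against 8.30%.

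Because the median of all genes was shifted, the values were also scaled by median ratios, which brought that median to -0.01 in HFD against ND. After scaling, limma called 3 of 6 members higher in HFD against ND (12.6% of all tested genes): Pck1 (log2 change 2.21, adjusted p = 0.00300), Slc37a4 (0.93, adjusted p = 0.0443) and Gpd1 (0.72, adjusted p = 0.0482). It called 4 of 6 higher in HLJDD against ND (9.39% of all tested genes): Pck1 (1.80, adjusted p = 0.00950), Pcx (0.82, adjusted p = 0.0351), Slc37a4 (0.97, adjusted p = 0.0454) and Gpd1 (0.75, adjusted p = 0.0484). On the scaled values the groups did not overlap for Pck1, Pcx and Gpd1 in HFD against ND (18.2% of tested genes with the higher side in HFD) and for the same 3 members in HLJDD against ND (18.0%). Apart from Pck1, the limma calls therefore depended on the scaling, and Fbp1 and G6pc were called under neither. Limma-voom on the recovered reads called 3 of 6 higher in HFD (12.5% of all tested genes) and 4 of 6 higher in HLJDD against ND (9.73%).

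**Figure D2:**
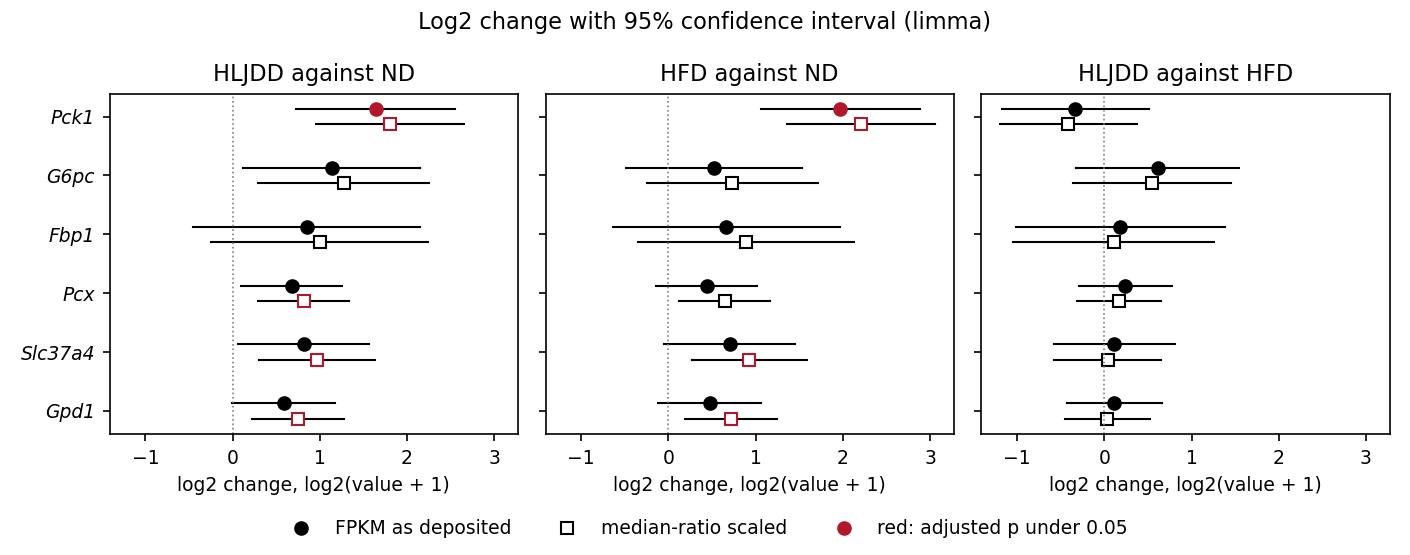
Log2 change of each gene (x axis, difference of mean log2(value + 1), first group of the panel title minus the other) with its 95% confidence interval from limma. Filled circles are FPKM as deposited, open squares are median-ratio scaled values, and red marks an adjusted p under 0.05. Pck1 is red on both scales against ND, while every interval of HLJDD against HFD includes 0.

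Between HLJDD and HFD no member was called. The log2 change of Pck1 was -0.33 with a 95% interval of -1.17 to 0.51. That of G6pc was 0.61 (-0.33 to 1.55), with means of 16.7 ± 10.3 FPKM in HLJDD and 9.77 ± 4.31 FPKM in HFD. The changes were 0.18 for Fbp1 (-1.02 to 1.39), 0.24 for Pcx (-0.29 to 0.77), 0.12 for Slc37a4 (-0.58 to 0.81) and 0.11 for Gpd1 (-0.43 to 0.66). Each had a limma adjusted p of 0.999, all 6 members overlapped between the groups (1.03% of tested genes did not), and none had an unadjusted p under 0.05. Over all tested genes, limma called 0 (0.00%) and limma-voom 0, with 186 and 576 genes at an unadjusted p under 0.05. These intervals leave room for changes of more than 1 on the log2 scale in G6pc and Fbp1 in the upward direction, and in Pck1 and Fbp1 downward. A direction for Pck1 in particular was not fixed, since its change was 0.02 without HLJDD replicate 2.

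Within each group the members mostly shared the order of the libraries. In HLJDD all 6 had the same order of libraries, replicate 4 highest, then 1, 3 and 2, an order held by 12.8% of all tested genes. After median-ratio scaling 3 of 6 kept this order (10.3% of tested genes), and replicates 4 and 1 still led for all 6. In HFD 5 of 6 members had replicate 4 highest, then 3, 1 and 2 (5.93% of tested genes), and only G6pc had replicate 1 as its lowest. In ND 5 of 6 had replicate 3 highest and replicate 1 lowest with 2 between (27.3% of tested genes), and Pcx had the opposite order. In ND the sum of the proximal markers had the order of those 5 members. Its order differed from the commonest order of the members in the other groups. From highest to lowest it ran replicate 4, 1, 2 and 3 in HLJDD and replicate 4, 1, 3 and 2 in HFD. The highest HLJDD value exceeded the lowest by 7.10-fold for Fbp1, 4.18-fold for G6pc, 3.94-fold for Pck1, 3.07-fold for Slc37a4, 2.38-fold for Pcx and 2.19-fold for Gpd1, against a median of 1.65-fold over tested genes. After scaling the range of Fbp1 was 5.32-fold and that of Gpd1 1.71-fold, against a median of 1.36-fold.

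Values of marker genes are given beside this order. Slc46a1, the proximal proton-coupled folate transporter, stood at 94.7, 39.7, 39.5 and 157 FPKM in HLJDD, with replicates 4 and 1 high as for the members. Nts, the neurotensin gene of the lower gut, stood at 47.5, 31.9, 85.8 and 14.2 FPKM, lowest in replicate 4. The sum of 10 adipocyte markers was 198, 350.3, 281 and 119.9 FPKM in HLJDD, highest in replicate 2. The sum of 12 enterocyte markers was 23509, 14554, 26665 and 22384 FPKM in HLJDD, lowest in replicate 2. Smooth muscle markers also had their lowest HLJDD sum in replicate 2. As deposited each member was lowest in that library. After median-ratio scaling 3 of 6 were, while G6pc, Pcx and Gpd1 were lowest in replicate 3. The adipocyte sum ran from 50.4 to 173 FPKM in HFD and from 75.3 to 111 FPKM in ND. The enterocyte sum ran from 19921 to 25712 FPKM in HFD and from 22518 to 30747 FPKM in ND. Adipoq, the adiponectin gene, ran from 7.17 to 19.98 FPKM in HLJDD, from 1.38 to 8.22 FPKM in HFD and from 1.16 to 2.05 FPKM in ND. The sum of 8 smooth muscle markers ran from 232 to 609 FPKM in HLJDD, from 205 to 843 FPKM in HFD and from 609 to 848 FPKM in ND. Markers of hepatocytes were mostly low: 7 of 10 hepatocyte markers were below 1 FPKM in every library. Ttr, the transthyretin gene, was the only 1 of the 10 to pass the filter. It stood at 2.54, 2.02, 2.12 and 3.10 FPKM in HLJDD and at 2.29, 1.66, 2.59 and 3.60 FPKM in HFD, against 0.668, 0.663 and 0.694 FPKM in ND, and was called higher in HFD and in HLJDD against ND (log2 change 1.05 and 1.03; limma, adjusted p = 0.00258 and 0.00340). Alb, the albumin gene, stood at 3.06 FPKM in HFD replicate 1 and at no more than 0.38 FPKM elsewhere. Likewise 6 of 7 measured pancreatic acinar markers were below 1 FPKM in every library. The sum of 8 immune cell markers ran from 86.6 to 255 FPKM in HLJDD and from 126 to 237 FPKM in HFD, against 42.9 to 67.2 FPKM in ND. The part of these cells and of the mitochondrial share in the values of the members was not tested.

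**Figure D3:**
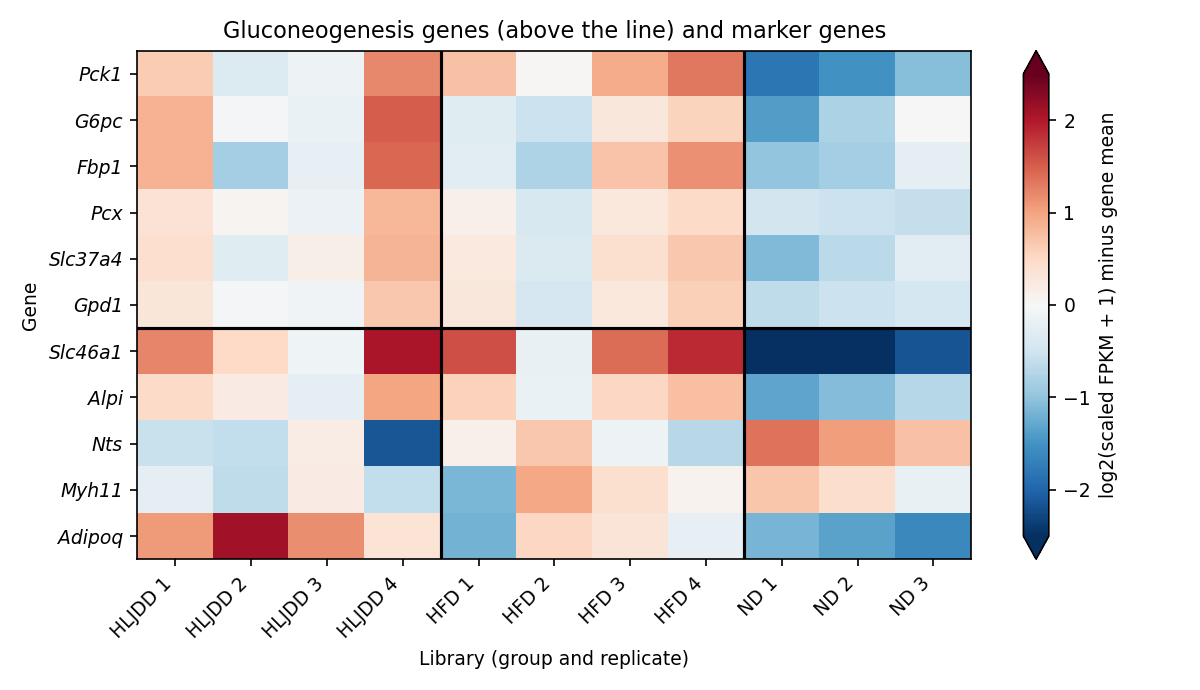
Median-ratio scaled level of each gene (rows) in each library (columns) as log2(scaled FPKM + 1) minus the mean of the gene over the 11 libraries, with colours cut at -2.5 and 2.5. The 6 gluconeogenesis genes are above the horizontal line. Below it are the proximal gene Slc46a1, the enterocyte gene Alpi, the distal gene Nts, the smooth muscle gene Myh11 and the adipocyte gene Adipoq. Alpi does not stand for the 12 enterocyte markers. After scaling limma called 5 of them higher and 2 lower in HFD against ND, and 3 higher and 2 lower in HLJDD against ND. HLJDD replicates 4 and 1 and HFD replicates 4 and 3 are high for most members and for Slc46a1, and HLJDD replicate 4 is lowest for Nts.

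As a description of how far group accounts for each member, the groups made up 68.5% of the variance of log2 values over libraries for Pck1 as deposited, against a median of 34.0% over tested genes. For the others the share was near or below that median, at 38.7% for Pcx, 36.1% for Slc37a4, 34.5% for G6pc, 33.5% for Gpd1 and 15.5% for Fbp1. After median-ratio scaling it was 77.3% for Pck1, between 54.9% and 55.7% for Pcx, Slc37a4 and Gpd1, 43.5% for G6pc and 25.2% for Fbp1, against a median of 38.9%. Likeness was measured as the root mean square difference of centred log2 profiles over the 11 libraries, where a small value means alike. The measure grows with the spread of a gene, so its median over all tested genes is given beside it. It was 0.53 to 0.68 between Pck1 and each other member, where the median from Pck1 to all genes was 1.06. It was 0.11 between Pcx and Gpd1, the closest pair of members (median from Pcx 0.49), and 0.52 between Pcx and Fbp1. The genes nearest to Pck1 were Rdh16f2 (0.20), St3gal1 (0.20) and Dgat2 (0.21). Slc37a4 was nearest to Pkm, the gene of a pyruvate kinase of glycolysis (0.07), and both Pcx and Gpd1 had Eeig1 among their 3 nearest genes. The nearest genes of Fbp1 were Nat8f2, Ncoa4 and Papss2, and those of G6pc were Cdr2, Gstm4 and Slc16a6.

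Pck1 and Fbp1 can be set against the glycolytic enzymes they oppose, by the ratio of the FPKM of each to their summed FPKM, which does not depend on the scaling of the library. Pck1 over the pyruvate kinases Pklr and Pkm was 0.583, 0.407, 0.467 and 0.682 in HLJDD, 0.727, 0.601, 0.805 and 0.883 in HFD, and 0.214, 0.230 and 0.264 in ND. HLJDD and HFD both lay above ND without overlap, and 3 of 4 HFD libraries lay above every HLJDD library. On the log2 scale the ratio was 1.67 higher in HFD than in ND and 1.16 higher in HLJDD than in ND (exact two-sided permutation test, p = 0.0286 in each, the smallest that 35 arrangements allow, adjusted over the 9 ratio tests p = 0.129). It was -0.51 in HLJDD against HFD (exact permutation p = 0.0571, adjusted p = 0.171). Fbp1 over the phosphofructokinases Pfkl, Pfkm and Pfkp ran from 0.193 to 0.665 in HLJDD, from 0.222 to 0.542 in HFD and from 0.171 to 0.249 in ND. Its log2 difference was 0.90 in HFD against ND and 0.86 in HLJDD against ND (exact permutation p = 0.114 and 0.171), and in HLJDD against HFD it was -0.05 (exact permutation p = 0.943). None of the ratio tests passed after adjustment. With a smallest possible p of 0.0286, most of the 9 tests would have to reach it for any to pass. Not passing therefore says little about a single ratio. The Fbp1 ratio overlapped between all groups. Both ratios leave out isoforms described below, Pck2 and Fbp2. Fbp2 exceeded Fbp1 in every library, so the Fbp1 ratio does not give the balance of all bisphosphatase to phosphofructokinase transcripts.

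**Figure D4:**
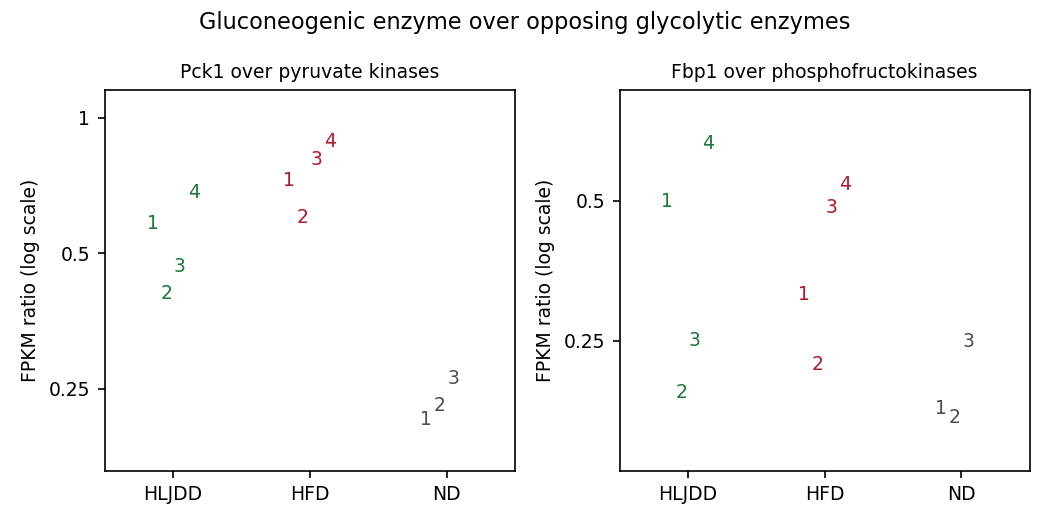
Ratio of the FPKM of a gluconeogenic enzyme to the summed FPKM of the glycolytic enzymes that it opposes (y axis, log scale) by group (x axis). Digits are single libraries named by replicate number. The isoforms Pck2 and Fbp2 are left out, and Fbp2 exceeded Fbp1 in every library. Pck1 over pyruvate kinases runs from 0.407 to 0.883 in HLJDD and HFD and from 0.214 to 0.264 in ND, whereas Fbp1 over phosphofructokinases overlaps between the groups.

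Isoforms of the members stood at other levels, and as deposited none was called against ND. Pck2, the mitochondrial carboxykinase, stood at 5.81, 4.96, 6.22 and 5.28 FPKM in HLJDD, at 2.66, 5.80, 5.27 and 5.47 FPKM in HFD, and at 5.42, 5.47 and 3.76 FPKM in ND. It made up 5.58 ± 2.85% of the summed Pck1 and Pck2 level in HLJDD, 3.63 ± 1.82% in HFD and 13.3 ± 4.66% in ND. G6pc3, the ubiquitous glucose-6-phosphatase, ran from 9.44 to 13.6 FPKM over all libraries, and G6pc made up 52.8 ± 15.03% of the sum of the pair in HLJDD, 43.2 ± 9.21% in HFD and 34.1 ± 10.1% in ND. Fbp2, known as the muscle bisphosphatase, exceeded Fbp1 in every library, at 225 to 302 FPKM in HLJDD, 257 to 325 FPKM in HFD and 177 to 258 FPKM in ND. Fbp1 made up 3.22% to 14.9% of the sum of the pair. The pair lies next to each other on chromosome 13, RefSeq lists each as an older name of the other, and reads may be split between them, so their separate levels are uncertain. Limma called 0 of the 6 tested isoforms in either comparison with ND, where 16.6% (HFD) and 11.9% (HLJDD) of all tested genes were called. At an unadjusted p under 0.05 stood 1 in HFD and 0 in HLJDD against ND, and limma-voom called 1 in each. As deposited the smallest p was that of Fbp2 in both comparisons. Its log2 change was 0.43 in HFD against ND (limma, adjusted p = 0.0932) and 0.37 in HLJDD against ND (limma, adjusted p = 0.174). After median-ratio scaling limma called Fbp2 higher in HFD against ND (log2 change 0.67, adjusted p = 0.00703) and also in HLJDD against ND. On that scale 12.6% and 9.39% of all tested genes were called higher.

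**Figure D5:**
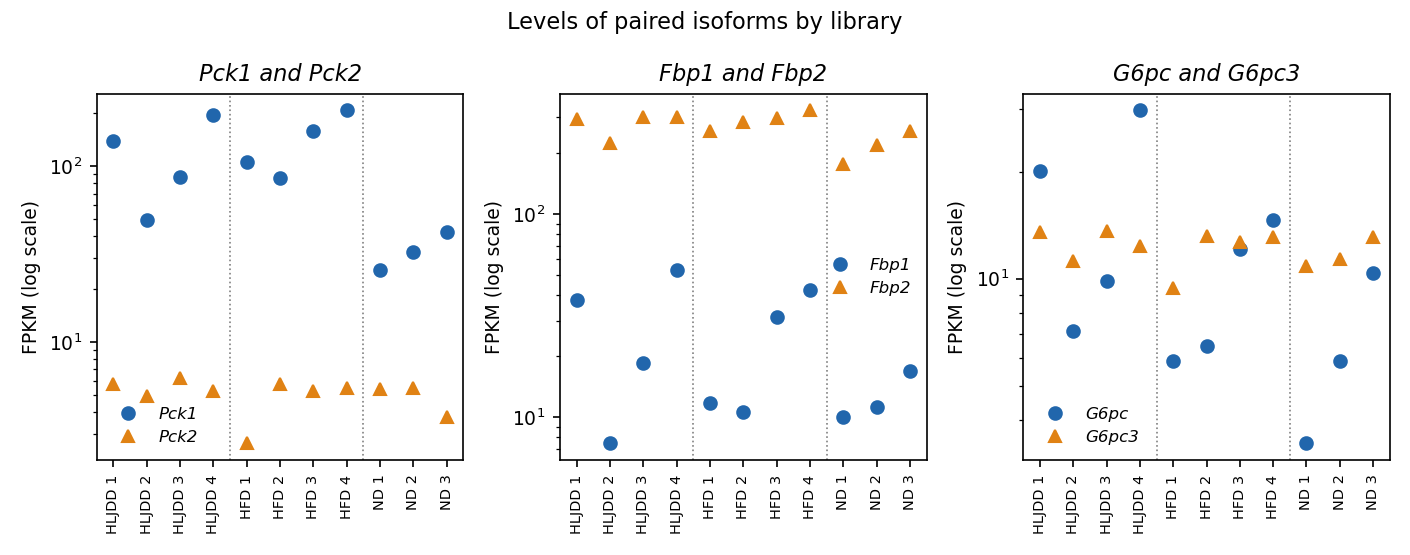
FPKM (y axis, log scale) of Pck1 and Pck2, Fbp1 and Fbp2, and G6pc and G6pc3 in each library (x axis), with dotted lines between the groups. Pck1 lies above Pck2 and Fbp2 above Fbp1 in all 11 libraries, and G6pc crosses G6pc3.

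Of the reversible steps that gluconeogenesis shares with glycolysis, 1 of 13 tested genes rose in HFD against ND and none fell. Over all tested genes, 5.06% were called higher and 11.5% lower. The gene that rose was Mdh2, the mitochondrial malate dehydrogenase. It stood at 771 to 1530.1 FPKM in HLJDD and 912 to 1407 FPKM in HFD, against 415 to 729 FPKM in ND. Its log2 change in HFD against ND was 1.00 (limma, adjusted p = 0.0241). In HLJDD against ND 2 of 13 rose, where 4.10% of all tested genes were called higher. They were Mdh2 (1.01, limma adjusted p = 0.0273) and Gapdh, the triose phosphate dehydrogenase (0.77, limma adjusted p = 0.0409). The Mdh2 calls were lost without ND replicate 1 or 2, without HFD replicate 3 or 4 in the HFD comparison and without HLJDD replicate 1 or 4 in the HLJDD comparison (limma, adjusted p up to 0.149). The Gapdh call was lost in 6 of 11 such fits, those without HLJDD replicate 1 or 4, HFD replicate 3 or any ND replicate (limma, adjusted p up to 0.179).

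Of the opposing steps of glycolysis, 1 of 11 tested genes fell in HFD against ND and none rose. Over all tested genes 11.5% were called lower, so this count is near the share over all genes. The gene that fell was Hk2, a hexokinase (log2 change -0.76, limma adjusted p = 0.0449). It stood at 0.617 to 2.25 FPKM in HFD and 2.34 to 4.15 FPKM in ND. That call held only without HLJDD replicate 2 or 3, HFD replicate 2 or ND replicate 3, and was lost in the other 7 of 11 fits (limma, adjusted p up to 0.186). In HLJDD against ND limma called 0 of 11, with 3 at an unadjusted p under 0.05 and 3 by limma-voom, and the Hk2 change was -0.75 (limma, adjusted p = 0.0571). After median-ratio scaling Pfkl and Pkm were called higher and Hk2 lower in both comparisons. The median log2 change of the list also changed sign with the scaling in HFD against ND (-0.13 as deposited, 0.09 scaled).

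For the entry of substrates, 1 of 17 tested genes fell and none rose in HFD against ND. It was Slc25a12, a mitochondrial aspartate-glutamate carrier (log2 change -0.56; limma, adjusted p = 0.0350). In HLJDD against ND 1 of 17 fell and none rose, and it was Gk, glycerol kinase (-0.53, limma adjusted p = 0.0489). Over all tested genes, 11.5% were called lower in HFD and 7.79% in HLJDD against ND. The calls of Slc25a12 and Gk depended on single libraries. Slc25a12 held only without HLJDD replicate 2, 3 or 4, HFD replicate 4 or ND replicate 3, and Gk only without HLJDD replicate 2 or 3 or HFD replicate 1 (limma, adjusted p up to 0.137 and 0.193 otherwise). After scaling, Mpc2 and Slc25a11 were called higher in HFD against ND, and Gpt, Pccb and Slc25a11 in HLJDD against ND. Slc25a12 was still called lower in HFD against ND, while Gk was not called in HLJDD against ND. Among 8 glucose transporter genes limma called 0 in either comparison, where 16.6% (HFD) and 11.9% (HLJDD) of all tested genes were called. At an unadjusted p under 0.05 stood 2 in HFD and 1 in HLJDD against ND, and limma-voom called 3 and 1. The smallest p were those of Slc5a4a, a sodium-dependent glucose cotransporter family member, in HFD against ND (log2 change 1.25; limma, adjusted p = 0.0696) and of Slc2a7, a facilitative transporter, in HLJDD against ND (0.61; limma, adjusted p = 0.168).

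Among 26 tested regulators known to act on the pathway, HFD against ND had 5 called higher and 2 called lower, and HLJDD against ND had 3 called higher and 4 called lower. Of all tested genes, 5.06% were called higher and 11.5% lower in HFD against ND, and 4.10% and 7.79% in HLJDD against ND. Pparg, a nuclear receptor of fat storage that acts on Pck1 in adipocytes, ran from 5.27 to 8.16 FPKM in HLJDD and from 4.40 to 9.18 FPKM in HFD, against 2.28 to 2.44 FPKM in ND. It rose by 1.19 in HFD against ND and by 1.15 in HLJDD against ND (limma, adjusted p = 0.00335 and 0.00487), and both calls held when any 1 library was left out. Hnf4a, the nuclear receptor of liver and gut epithelium, fell by 0.73 in HFD against ND (limma, adjusted p = 0.00600). It stood at 102 to 130.4 FPKM in HFD and 192 to 202 FPKM in ND. That call also held when any 1 library was left out. Hnf4a was called lower in HLJDD against ND too. Nr0b2, a repressor induced by bile acids, was low, at 1.17 to 6.51 FPKM in HLJDD and 0.970 to 6.81 FPKM in HFD, against 0.0210 to 0.266 FPKM in ND. It rose by 1.99 in HFD and by 2.10 in HLJDD against ND (limma, adjusted p = 0.0140 and 0.0126), and was lost in both without ND replicate 1 or 2 (limma, adjusted p up to 0.0525). Nr1d1, the clock repressor REV-ERBα, fell by 0.62 in HFD against ND (limma, adjusted p = 0.0251). That call was lost without HFD replicate 3 or 4 or ND replicate 1 or 2 (limma, adjusted p up to 0.106). It was also lost after median-ratio scaling, where the log2 change was -0.38 (limma, adjusted p = 0.211). In HLJDD against ND Nr1d1 fell by 0.85 (limma, adjusted p = 0.00612), a call that held without any 1 library and after scaling. Srebf1, the lipogenic factor SREBP1, rose by 1.47 in HLJDD against ND (limma, adjusted p = 0.0184). That call was lost without HLJDD replicate 1 or ND replicate 1 or 2 (limma, adjusted p up to 0.0966). Srebf1 was called higher in HFD against ND too (log2 change 1.12, limma adjusted p = 0.0453). With scaling the counts were 7 higher and 1 lower in HFD (12.6% and 12.5% of all tested genes), and 6 higher and 4 lower in HLJDD against ND (9.39% and 9.88%), and the median change of the list moved from -0.08 to 0.13 in HFD against ND.

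Between HLJDD and HFD limma called 0 genes in each of these 6 lists, and so did limma-voom. At an unadjusted p under 0.05 stood 1 gene, the regulator Cebpa, a factor of gluconeogenic promoters in liver (log2 change 0.33, unadjusted p = 0.0331, limma adjusted p = 0.999). In the other lists the smallest unadjusted p were those of Ldha, Pck2, Pfkfb4, Slc25a12 and Slc5a4a.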

How the data were processed

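Total RNA was extracted with TRIzol and libraries were prepared with the VAHTS Universal V6 kit, per the labels' protocols. Fastp, HISAT2, HTSeq, R 3.2.0 and the mm10 build are named in the submitters' processing notes; the annotation, the strand setting and further versions are not stated. The values the authors deposited are FPKM per gene symbol and library. Whole reads were recovered from the steps of each gene's FPKM values for 24294 of 24294 symbols (tolerance 0.01 reads), which gave 30100481 to 37940645 reads per library.

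Groups follow the sample titles. The test was run on genes that reached 1 FPKM in 3 or more libraries, with limma 3.58.1 (R 4.3.3), two-sided, on log2(FPKM + 1), a pseudocount of 1, with a variance trend and all 11 libraries in one fit. Benjamini-Hochberg adjustment ran over 10764 genes, with a threshold of 0.05. The fit was tested on simulated data. Pair ratios were tested by exact permutation, adjusted over 9 tests, 3 of them on a ratio of G6pc. Levels are mean ± SD.

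Alternatives were median-ratio, quantile and TPM scaling, other filters and pseudocounts, robust variance, fits of the groups compared alone, a replicate block, limma-voom on recovered reads, leaving out each library, and leaving out the 2 libraries of highest mitochondrial share. The members and the gene lists were chosen with earlier results of these data known. Besides the members, the genes named are up to 4 called genes of smallest adjusted p per list (the gene of smallest p where none was called), the glycolytic genes of the ratios, chosen markers, and the 3 genes nearest to each member in profile. Names of genes called only after scaling, and the markers Slc46a1, Slc40a1, Sct, Ttr, Nts and Alpi, were chosen after their values were seen. That ratio and some genes of the lists are not reported here, and list counts leave those genes out. Promoter windows and gene positions come from RefSeq (GRCm38.p6).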

Additional observations from a re-analysis of the deposited data

How the results depend on the processing

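In the comparisons with ND, every member kept a log2 change above 0 under all 22 alternatives run. Several of these could not move the change, only its adjusted p. They are the other filters, robust variance, the fit of the groups compared alone, and leaving out libraries of the third group. The count of members called in HFD against ND was 1 as reported, 3 with median-ratio scaling, 2 with quantile normalization and 3 with limma-voom, and it ran from 0 to 1 when single libraries were left out. In HLJDD against ND it was 1 as reported, 0 without a filter on low values, 4 with median-ratio scaling, 4 with quantile normalization, 4 with limma-voom and 5 without HFD replicate 1 and HLJDD replicate 2, and it ran from 0 to 4 when single libraries were left out (0 without HLJDD replicate 1 or 4 or ND replicate 1 or 2, and 4 without HLJDD replicate 2). Over all genes, limma called 1786 in HFD against ND, with 2695 under median-ratio scaling (1351 higher and 1344 lower, against 545 and 1241 as deposited), 1145 under TPM scaling, 2804 under quantile normalization, 2723 with limma-voom, 3352 without the 2 libraries of highest mitochondrial share, and 664 to 3317 when single libraries were left out. In HLJDD against ND it called 1279, with 2074 under median-ratio scaling (1011 higher and 1063 lower, against 441 and 838), 2294 under quantile normalization, 2119 with limma-voom, 2575 without the 2 libraries of highest mitochondrial share, and 470 to 1696 when single libraries were left out. In HLJDD against HFD it called 0, and 1 without those 2 libraries or without HLJDD replicate 2 (0 to 1 over single libraries left out). The cause of these shifts was not tested.

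In HLJDD against HFD, leaving out single libraries changed the direction of 4 members, none of them called: Pck1 ran from -0.634 to 0.0185, Fbp1 from -0.201 to 0.690, Slc37a4 from -0.0847 to 0.429 and Gpd1 from -0.0543 to 0.320. The log2 ratio of Fbp1 over the phosphofructokinases was -0.0474 in this comparison, ran from -0.348 to 0.246 over single libraries left out, and was above 0 when HLJDD replicate 2, HLJDD replicate 3, HFD replicate 3 or HFD replicate 4 was left out. With the replicate number as a block, 1080 genes were called in HFD against ND and 724 in HLJDD against ND, and the members called stayed at 1 in each. The labels do not say that replicate numbers pair the libraries, and deviations of same-numbered libraries correlated between -0.22 and 0.37, so the numbers are not taken as pairs. FPKM of low genes rest on few reads: G6pc had 274 reads in its lowest library.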
